A study of Canis lupus familiaris with 15 samples.

Results

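Heat shock proteins, chaperonins and immunophilins are represented by 45 of the 5246 genes that could be named on a canine cDNA array. They were taken by symbol: the HSPA, HSPB, HSPD, HSPE, HSPH, HSP90, DNAJ and FKBP genes, the PPI genes whose next letter is A to H, the numbered CCT genes and TCP1, with HSPA5 left out. This gave 15 DNAJ genes, 6 chaperonin subunits, 6 FKBP genes, 5 cyclophilins, 4 small heat shock proteins, 3 HSP90 genes, 2 HSPA genes, the chaperonin pair HSPD1 and HSPE1, HSPH1, and HSPBAP1, which shares only its first letters with the small heat shock proteins. All 45 had a value on each of the 15 arrays, so none was lost to a filter.

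The arrays compared 3 dog mammary tumour lines in pairs. An anaplastic carcinoma was the source of P114 and a benign mixed tumour that of CMT-U229, whereas CMT-U335 was grown from a mammary osteosarcoma. The labels name no treatment, genotype or age, and each tumour type was represented by a single line, harvested close to confluence. A pair had 5 arrays, each carrying both lines, with P114 in Cy3 on 2 of the 5 against CMT-U335 and on 3 of the 5 against CMT-U229, and CMT-U229 in Cy3 on 2 of the 5 against CMT-U335. Each value is a log2 ratio of the first line over the second, written P114/CMT-U335, P114/CMT-U229 and CMT-U229/CMT-U335. The table does not say which dye is the numerator; it was read as Cy5, so every direction below is likely and not settled, and the other reading would turn every sign. The labels number the 5 arrays as biological replicates, whereas the design text speaks of dye swaps with biological replication, so p-values measure the spread between arrays, which may be technical. Intensities were not used here, and precision is limited by having 5 arrays a pair.

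Chaperones help other proteins reach and keep their fold. HSP70 proteins bind unfolded stretches in a cycle that J-domain (DNAJ) proteins start and exchange factors end, HSP90 proteins finish the folding of kinases and steroid receptors, and small heat shock proteins hold unfolding proteins until these machines act. Chaperonins enclose a protein in a barrel: HSPD1 with its lid HSPE1 in mitochondria, and the CCT complex, which folds actin and tubulin, in the cytosol. FKBP proteins and cyclophilins (PPI), together called immunophilins because they bind immunosuppressive drugs, turn the peptide bond before proline, and several of them ride on HSP90.

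Most changed members had their higher level in CMT-U335, beside either other line. With limma and a Benjamini-Hochberg adjusted p under 0.05, 17 of the 45 differed in P114/CMT-U335, where 22.3% of all genes did. Of these, 15 were lower in P114 (14.4% of all genes) and 2 were higher (7.89%). CMT-U229/CMT-U335 gave 15 changed members against 17.3% of all genes, with 12 lower in CMT-U229 (8.58% of all genes) and 3 higher (8.77%). P114/CMT-U229 gave 3, against 7.3% of all genes, with 1 lower in P114 (3.98%) and 2 higher (3.32%). As shares of the members these counts are 37.8%, 33.3% and 6.67%, in that order, so the share in P114/CMT-U229 lay near that of all genes. The median member ratio was -0.157, -0.0901 and -0.0530, beside medians of -0.0228, -0.00504 and -0.0113 over all genes. CMT-U335 stood on all 10 arrays of the first pair of counts, so these are not independent of each other.

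**Figure D1:**
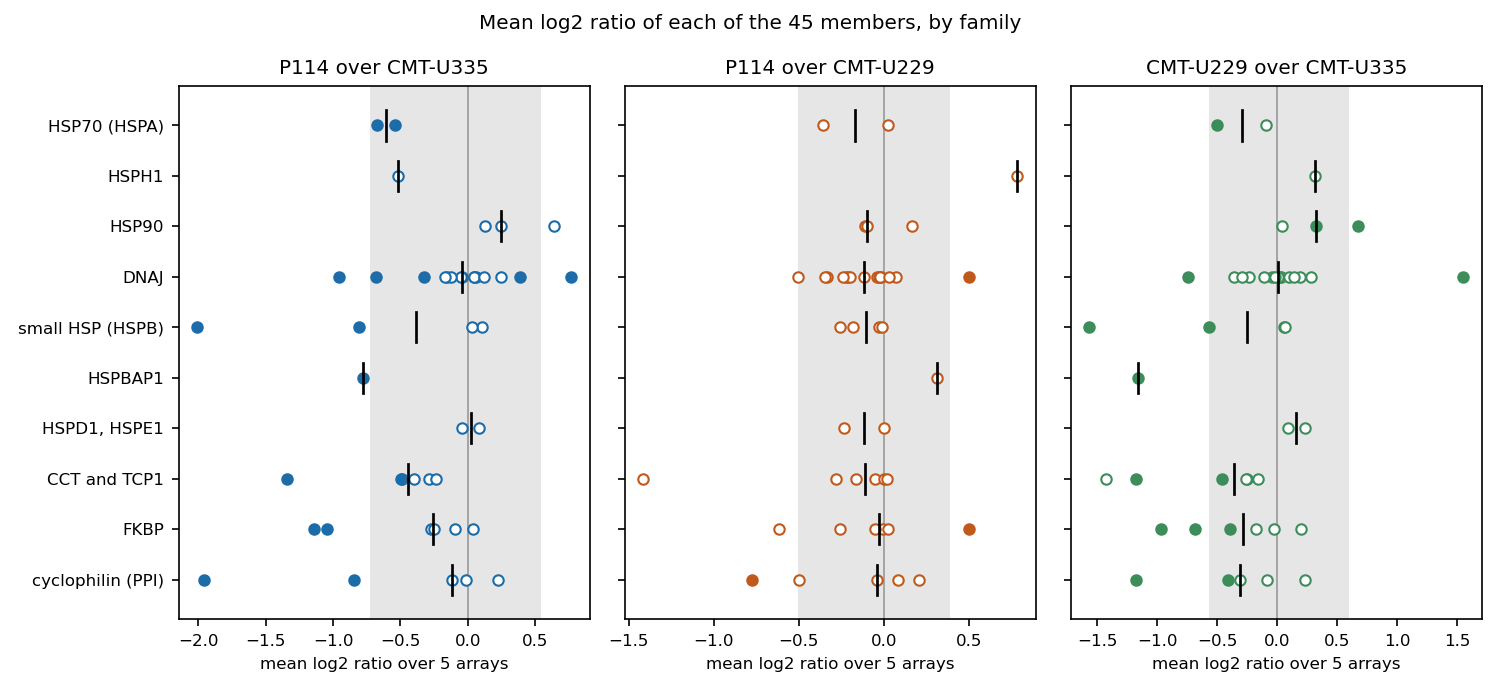
Each point is the mean log2 ratio of 1 of the 45 genes over 5 arrays, in rows by family, with 1 panel per pair of lines; filled points had a limma adjusted p under 0.05, black bars are family medians, and the grey band runs from percentile 5 to percentile 95 of all 5246 genes. In P114/CMT-U335 the filled points lie mostly left of 0, down to HSPB8 at -2.01, while the 3 HSP90 genes lie right of 0 and are open.

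Sorted by gene, 10 members were lower than in CMT-U335 in both other lines and did not differ between those lines at the threshold: CCT2, CCT8, DNAJC21, FKBP3, FKBP5, HSPA9, HSPB6, HSPB8, HSPBAP1 and PPID. PPIC alone was called in all 3 pairs, each time lower in the first line. CCT6A, DNAJC1, DNAJC8 and HSPA4 were lower in P114/CMT-U335, and their other ratios missed the threshold; differences between their ratios were not tested. DNAJB14 was higher than in CMT-U335 in both other lines, DNAJC19 was higher in P114 than in either other line, FKBP1B was lower in CMT-U229 than in either other line, and HSP90AA1 and HSP90B1 were higher in CMT-U229/CMT-U335. The other 25 members passed the test in no pair. These patterns were not counted over all genes, and the pairs share lines, so the numbers only sort the members.

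P114 had lower levels of both HSPA genes than CMT-U335. HSPA4, a large HSP70 relative that serves as an exchange factor, gave -0.54, -0.67, -0.65, -0.64 and -0.88 on replicates 1 to 5 (mean -0.68 ± 0.08, SE, n = 5; limma adjusted p = 0.000994). The 5 values were negative and close together. HSPA9, the mitochondrial HSP70 that pulls imported proteins across the inner membrane, read -0.49, -0.61, -0.59, -0.18 and -0.83 (mean -0.54 ± 0.10; limma adjusted p = 0.00827), with replicate 4 nearest to 0. It was also lower in CMT-U229/CMT-U335, at -0.10, -0.99, -0.65, -0.35 and -0.40 (mean -0.50 ± 0.13; limma adjusted p = 0.0387). All 5 were negative, but replicate 2 was far below replicate 1, and the call rested on the full set: without replicate 2, 3, 4 or 5 the limma adjusted p was 0.0942, 0.119, 0.0672 and 0.0943. Its P114/CMT-U229 mean was 0.02 ± 0.17, with both signs among the arrays. HSPH1, another exchange factor of the HSP70 cycle, could not be placed: its 1 probe ranged from -2.66 to 2.09 in P114/CMT-U335, from -0.49 to 3.59 in P114/CMT-U229, and in CMT-U229/CMT-U335 its lowest and highest arrays were -1.79 and 1.99.

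The HSP90 genes that were called were higher than in CMT-U335, not lower. HSP90B1, the HSP90 of the endoplasmic reticulum (ER), gave -0.07, 0.62, 0.87, 0.93 and 1.02 in CMT-U229/CMT-U335 (mean 0.67 ± 0.16; limma adjusted p = 0.0294). Only replicate 1 lay near 0. Against CMT-U335, P114 gave 1.26, -0.13, 1.23, 0.61 and 0.23, a mean of 0.64 ± 0.21 that missed the threshold (limma adjusted p = 0.0703). Leaving out replicate 2, the one negative array, brought that to 0.83 ± 0.19 with a limma adjusted p of 0.0248. Conversely, the CMT-U229/CMT-U335 call was lost without replicate 2, 3, 4 or 5, at 0.0861, 0.0951, 0.0835 and 0.102. HSP90AA1, the stress-inducible cytosolic HSP90, was higher in CMT-U229/CMT-U335 by less, at 0.29, 0.35, 0.49, 0.12 and 0.38 (mean 0.33 ± 0.08; limma adjusted p = 0.0264). Its 5 arrays were all positive, yet without replicate 1, 2, 3 or 5 the limma adjusted p was 0.0530, 0.0957, 0.0928 and 0.0948. HSP90AB1, the constitutive cytosolic form, was called in no pair, with means of 0.24 ± 0.09, 0.16 ± 0.08 and 0.04 ± 0.08 in the order P114/CMT-U335, P114/CMT-U229 and CMT-U229/CMT-U335. Without replicate 5, which was its only negative P114/CMT-U335 array, its mean there was 0.33 ± 0.08 (limma adjusted p = 0.0372).

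A list of 11 other measured ER genes held 9 chaperones and folding enzymes and the transcription factors XBP1 and ATF4. In P114/CMT-U335 3 of the 11 were higher and 0 lower (27.3% called, beside 22.3% of all genes), and in CMT-U229/CMT-U335 4 were higher and 0 lower (36.4%, beside 17.3%). XBP1, which drives the ER stress response, was 1 of the called genes in both pairs, at 0.83 ± 0.13 and 0.73 ± 0.14. PDIA3, a disulphide isomerase for glycoproteins, was at 0.99 ± 0.13 and 1.28 ± 0.13 in these pairs. CALR, the lectin chaperone calreticulin, was at 0.46 ± 0.17, which did not pass, and 0.78 ± 0.11, which did. SERPINH1, the collagen chaperone, was at 0.94 ± 0.09 in P114/CMT-U335 and was the only one called in P114/CMT-U229, at 0.86 ± 0.08. ERP29, a lumenal folding helper, was uncalled at -0.33 ± 0.13 in P114/CMT-U335. The median of the 11 was 0.400, -0.0543 and 0.328 in P114/CMT-U335, P114/CMT-U229 and CMT-U229/CMT-U335.

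The 15 DNAJ genes were mixed in direction, and 10 of them passed in no pair. In P114/CMT-U335, P114/CMT-U229 and CMT-U229/CMT-U335, 33.3%, 6.67% and 13.3% were called, beside 22.3%, 7.3% and 17.3% of all genes. DNAJC21, a J protein that works on the maturing large ribosomal subunit, was lower in P114/CMT-U335 at -0.55, -1.005, -1.05, -1.07 and -1.12 (mean -0.96 ± 0.10; limma adjusted p = 0.000674). Replicate 1 stood apart from 4 arrays that nearly coincided. In CMT-U229/CMT-U335 it read -1.08, -0.84, -0.77, -0.32 and -0.71 (mean -0.74 ± 0.11; limma adjusted p = 0.00438), again with a negative value on each array, whereas P114/CMT-U229 was at -0.20 ± 0.09 and did not pass. DNAJC8, a nuclear J protein found with splicing factors, gave -0.86, -0.39, -1.10, -0.41 and -0.63 in P114/CMT-U335 (mean -0.68 ± 0.12; limma adjusted p = 0.00624). Its CMT-U229/CMT-U335 mean of -0.29 ± 0.09 missed the threshold and passed without replicate 1, at -0.36 ± 0.09 (limma adjusted p = 0.0401).

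DNAJB14, a J protein anchored in the ER membrane, had the largest positive mean among the called members. CMT-U229/CMT-U335 gave 0.76, 1.18, 1.52, 2.23 and 2.07 (mean 1.55 ± 0.22, a 2.93-fold difference; limma adjusted p = 0.00335). P114/CMT-U335 gave 1.09, 0.89, 0.34, 0.74 and 0.78 (mean 0.77 ± 0.11, 1.70-fold; limma adjusted p = 0.00285). All 10 arrays were positive, so CMT-U335 was the low line on each. Between P114 and CMT-U229 the values were -0.40, -0.41, -0.25, -1.48 and 0.02, with a mean of -0.50 ± 0.20 that did not pass and replicate 4 far below the rest.

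DNAJC19 belongs to the motor that draws proteins into the mitochondrial matrix. It was higher in P114 than in CMT-U229 at 0.36, 0.62, 0.72, 0.52 and 0.27 (mean 0.50 ± 0.09; limma adjusted p = 0.0193), all positive. Against CMT-U335 it read 0.03, 0.55, 0.24, 0.35 and 0.77 (mean 0.39 ± 0.11; limma adjusted p = 0.0467), also all positive but with replicate 1 near 0. Neither call was firm. Without replicate 1, 2 or 3 the P114/CMT-U229 limma adjusted p was 0.0567, 0.0683 and 0.0641, and without replicate 2, 3, 4 or 5 the P114/CMT-U335 one was 0.123, 0.0819, 0.106 and 0.120. DNAJC1, an ER membrane J protein, was lower in P114/CMT-U335 by little (mean -0.33 ± 0.09; limma adjusted p = 0.0314), and this was lost without replicate 1, 2, 3 or 5, at 0.0927, 0.0640, 0.104 and 0.0572.

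Among the uncalled J proteins were DNAJB1, the main stress-inducible partner of cytosolic HSP70, with means from 0.03 to 0.07 over the 3 pairs, and DNAJA3, its mitochondrial relative, at -0.04 in each. DNAJC2, a J protein of the ribosome, was at -0.36 ± 0.11 in CMT-U229/CMT-U335. DNAJC9, a nuclear J protein that binds histones, was at -0.35 ± 0.19 in P114/CMT-U229. On 4 of those 5 arrays DNAJC9 lay from -0.82 to -0.42, and on replicate 4 it was 0.58; without that array the mean was -0.58 ± 0.10 (limma adjusted p = 0.0218). DNAJB6, DNAJB13, DNAJC3, DNAJC7, DNAJC12 and DNAJC15 completed the uncalled group, with means from -0.23 to 0.29.

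HSPB8 had the most negative called mean of all members. This small heat shock protein passes misfolded proteins to autophagy together with BAG3. Its P114/CMT-U335 values were -1.9999, -1.83, -1.78, -2.17 and -2.25 (mean -2.01 ± 0.09, 4.02-fold lower in P114; limma adjusted p = 2.81e-05). The 5 arrays agreed closely. CMT-U229/CMT-U335 gave -2.02, -1.16, -1.25, -2.03 and -1.37 (mean -1.56 ± 0.16, 2.96-fold lower in CMT-U229; limma adjusted p = 0.000996), with replicates 1 and 4 lower than the other 3. Between P114 and CMT-U229 it read -0.74, 0.47, -0.71, -0.37 and 0.05, spanning 0 (mean -0.26 ± 0.19; limma adjusted p = 0.576). The means of BAG3 itself were 0.14 ± 0.10, 0.57 ± 0.13 and -0.46 ± 0.17 in P114/CMT-U335, P114/CMT-U229 and CMT-U229/CMT-U335, and the second one passed.

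HSPB6, a small heat shock protein best known from muscle, averaged -0.81 ± 0.08 in P114/CMT-U335 and -0.57 ± 0.08 in CMT-U229/CMT-U335 (limma adjusted p = 0.000467 and 0.00421). That average joined unlike probes. One probe gave -1.53 ± 0.11 and -1.21 ± 0.11 in these pairs, and the other gave -0.09 ± 0.10 and 0.08 ± 0.11 and passed in neither. The gene's ratio is therefore the mean of a large and a small one, and which probe reads HSPB6 was not tested. HSPB3 and HSPB7, also known from muscle, were uncalled, with means from -0.03 to 0.10.

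HSPBAP1, named for its binding to a small heat shock protein, was lower in CMT-U229/CMT-U335 at -0.77, -1.20, -1.04, -1.38 and -1.39 (mean -1.16 ± 0.11; limma adjusted p = 0.000715). P114/CMT-U335 gave -0.73, -0.40, -0.97, -0.75 and -1.05 (mean -0.78 ± 0.11; limma adjusted p = 0.00212). Both of its probes passed in both pairs, at -0.90 and -0.66 in P114/CMT-U335 and at -1.12 and -1.19 in CMT-U229/CMT-U335. It was positive on each P114/CMT-U229 array, from 0.06 to 0.59, but the mean of 0.31 ± 0.10 missed the threshold (limma adjusted p = 0.126). CRYAB, a small heat shock protein whose symbol lies outside the rule, had another order of lines: -1.79 ± 0.16 in P114/CMT-U335, -1.70 ± 0.18 in P114/CMT-U229, both called, and 0.15 ± 0.08 in CMT-U229/CMT-U335, not called.

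**Figure D2:**
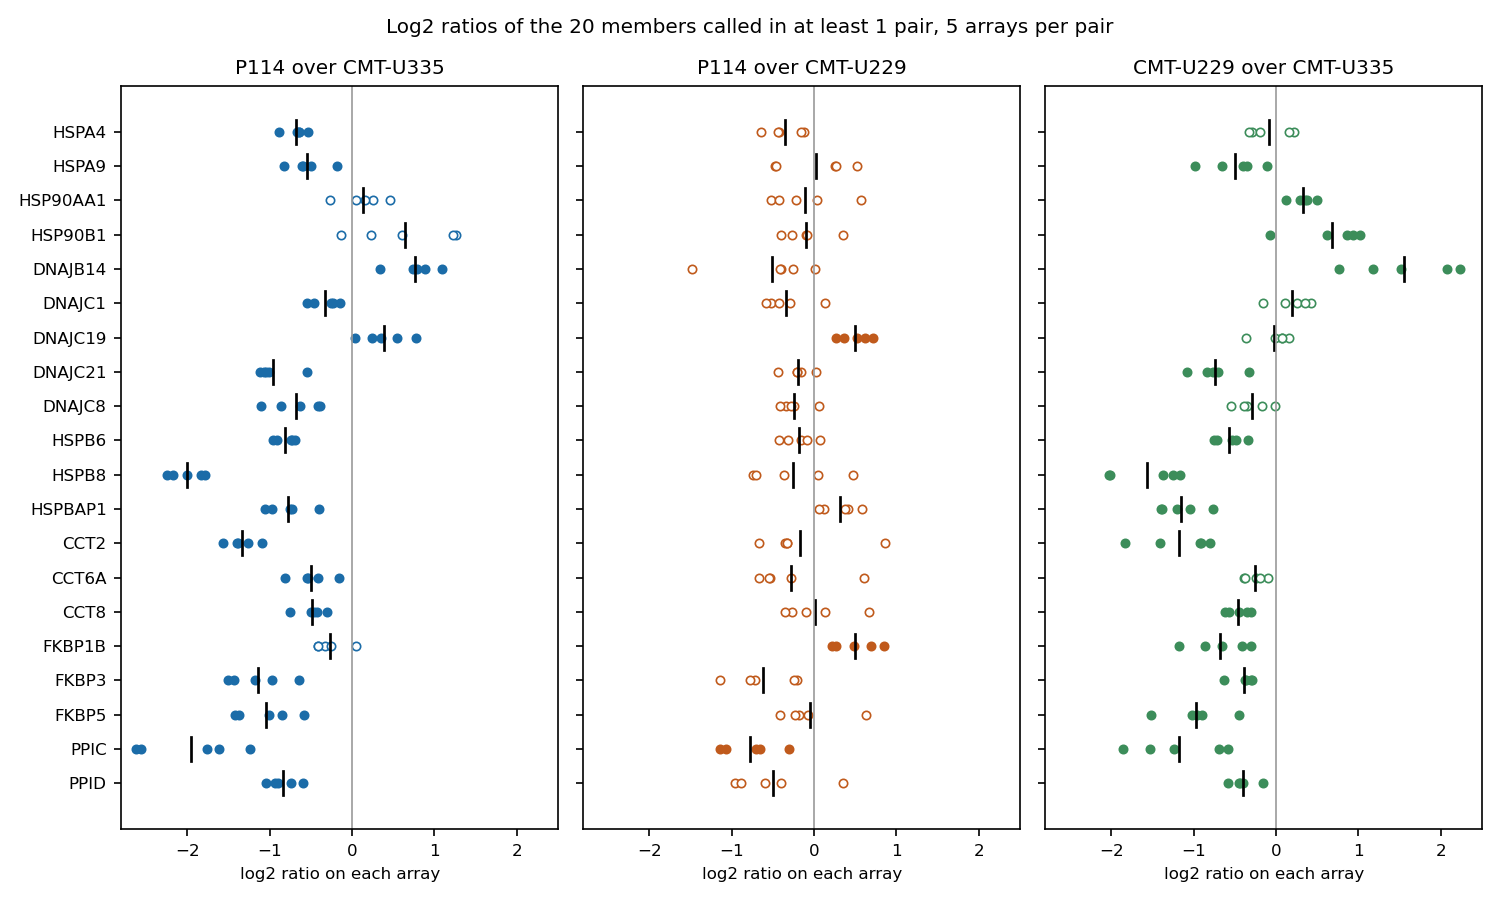
Each point is the log2 ratio of a gene on 1 array, for the 20 genes called in at least 1 pair; panels are pairs of lines, filled points mark pairs with a limma adjusted p under 0.05, and black bars are means of 5 arrays. HSPB8, PPIC and CCT2 lie clear of 0 on every array of the left and right panels, while the middle panel has filled points only for DNAJC19, FKBP1B and PPIC.

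The mitochondrial chaperonin did not differ between the lines at the threshold. HSPD1, the barrel, had means of -0.04 ± 0.08, -0.23 ± 0.21 and 0.23 ± 0.12 in P114/CMT-U335, P114/CMT-U229 and CMT-U229/CMT-U335. HSPE1, the lid, was at 0.09 ± 0.08 in P114/CMT-U335 and 0.09 ± 0.09 in CMT-U229/CMT-U335. In P114/CMT-U229 its arrays ran from -0.82 on replicate 5 to 0.73 on replicate 4, and HSPD1 read -0.71 and 0.72 on the same arrays. These 2 genes are the only members next to each other in RefSeq's gene order (assembly UU_Cfam_GSD_1.0).

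The cytosolic chaperonin was lower in P114 than in CMT-U335 for 3 of its 6 measured subunits (50%, beside 14.4% of all genes). All 6 means were negative there (median -0.441), as were those of 2876 of all 5246 genes. CCT2 led with -1.39, -1.57, -1.10, -1.26 and -1.38 (mean -1.34 ± 0.09, 2.53-fold lower in P114; limma adjusted p = 0.000101). The arrays lay close together and far from 0. In CMT-U229/CMT-U335 it gave -0.80, -0.92, -0.91, -1.84 and -1.40 (mean -1.18 ± 0.16, 2.26-fold lower in CMT-U229; limma adjusted p = 0.00309), with replicates 4 and 5 lower than the rest. Its P114/CMT-U229 arrays read -0.36, -0.33, -0.32, 0.86 and -0.67, so replicate 4 alone was positive (mean -0.16 ± 0.21).

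CCT8 was lower by less, at -0.30, -0.46, -0.42, -0.50 and -0.75 in P114/CMT-U335 (mean -0.49 ± 0.09; limma adjusted p = 0.00605) and -0.30, -0.61, -0.57, -0.45 and -0.35 in CMT-U229/CMT-U335 (mean -0.46 ± 0.07; limma adjusted p = 0.00657). None of these 10 values was positive. CCT6A was called in P114/CMT-U335 (mean -0.49 ± 0.10; limma adjusted p = 0.0124). In CMT-U229/CMT-U335 its mean of -0.26 ± 0.07 narrowly missed (limma adjusted p = 0.0524) and passed without replicate 1 at 0.0498. In P114/CMT-U229 it was -0.67 to -0.28 on 4 arrays and 0.61 on replicate 4; without that array it passed, at -0.51 ± 0.10 (limma adjusted p = 0.0281). CCT3 and CCT7 were uncalled, at -0.29 ± 0.12 and -0.40 ± 0.18 in P114/CMT-U335.

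TCP1, the CCT subunit after which the complex is also called, had the widest error of the 6 in every pair. In P114/CMT-U229 it read 0.72, -1.97, -1.56, -1.98 and -2.28, and the mean of -1.42 ± 0.41 missed the threshold (limma adjusted p = 0.0984). Without replicate 1, the array that stood apart, it was -1.95 ± 0.13 (limma adjusted p = 0.00166), and dropping such an array shrinks the error by itself. CMT-U229/CMT-U335 ran from -5.11 to 0.64 (mean -1.43 ± 0.80), and P114/CMT-U335 from -1.23 to 0.35 (mean -0.24 ± 0.22). It rests on 1 probe.

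Some genes that work beside CCT were also lower. Of 10 measured genes for prefoldin, which hands chains to CCT, and for tubulin-folding cofactors, 3 were lower and 0 higher in P114/CMT-U335 and in CMT-U229/CMT-U335: PFDN4 (-0.66 ± 0.13 and -0.72 ± 0.08), TBCB (-0.64 ± 0.12 and -0.45 ± 0.11) and TBCA (-0.51 ± 0.15 and -0.46 ± 0.10). Of 9 genes listed as actins and tubulins, the substrates of CCT, 3 were lower in P114/CMT-U335. These were TUBB at -0.74 ± 0.11, TUBA4A at -0.40 ± 0.10 and ACTR3, an actin-related gene and not itself an actin, at -0.30 ± 0.07. The actins ACTB, ACTG1 and ACTA2 were uncalled there, with positive means of 0.07 ± 0.08, 0.29 ± 0.11 and 0.22 ± 0.08. Of the 9 means in that pair, 4 were above 0 and 5 below. TUBA4A was also lower in CMT-U229/CMT-U335, at -0.59 ± 0.11, and was the only one of the 9 called there. The shares lower were 30% and 33.3% of the lists in P114/CMT-U335 (14.4% of all genes) and 30% and 11.1% in CMT-U229/CMT-U335 (8.58%), where the first list's median was -0.00502 with 5 genes on each side of 0. In P114/CMT-U229 limma called 0 of the 19 genes in these lists, with 3 and 0 of them at an unadjusted p under 0.05.

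FKBP3 and FKBP5 were the FKBP genes with the largest differences. FKBP3, a nuclear FKBP that binds DNA, gave -1.18, -1.44, -1.50, -0.64 and -0.97 in P114/CMT-U335 (mean -1.14 ± 0.13, 2.21-fold lower in P114; limma adjusted p = 0.00105). In CMT-U229/CMT-U335 it gave -0.31, -0.29, -0.37, -0.63 and -0.38 (mean -0.39 ± 0.08; limma adjusted p = 0.0125). It was negative on the P114/CMT-U229 arrays too, at -0.71, -0.78, -0.21, -0.24 and -1.15, where the mean of -0.62 ± 0.15 narrowly missed the threshold (limma adjusted p = 0.0527). No array of the 15 was positive for FKBP3, and without replicate 4 its P114/CMT-U229 mean of -0.71 ± 0.15 passed (limma adjusted p = 0.0413).

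FKBP5 sits on HSP90 in steroid receptor complexes and is a well-known target of the glucocorticoid receptor. P114/CMT-U335 gave -1.01, -0.59, -1.42, -0.84 and -1.38 (mean -1.05 ± 0.13, 2.07-fold lower in P114; limma adjusted p = 0.00162), and CMT-U229/CMT-U335 gave -0.45, -0.96, -0.90, -1.02 and -1.52 (mean -0.97 ± 0.14; limma adjusted p = 0.00427). CMT-U335 was the high line on all 10 arrays. P114/CMT-U229 averaged -0.05 ± 0.15. FKBP4, its counterpart in the same complexes, was uncalled at -0.25 ± 0.08, 0.03 ± 0.13 and -0.18 ± 0.08. Of 3 other glucocorticoid-responsive genes measured, DUSP1 and TSC22D3 were higher in P114/CMT-U335, at 1.56 ± 0.18 and 0.63 ± 0.13, and DUSP1 was higher in P114/CMT-U229, at 1.34 ± 0.31. NFKBIA was uncalled at -0.02 ± 0.12, 0.32 ± 0.16 and -0.29 ± 0.13 in P114/CMT-U335, P114/CMT-U229 and CMT-U229/CMT-U335. In the last pair limma called 0 of these and the receptor gene NR3C1, with 2 of the 4 under an unadjusted p of 0.05. NR3C1 itself was uncalled at 0.23 ± 0.11, 0.16 ± 0.07 and 0.16 ± 0.07.

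FKBP1B, which steadies calcium release channels, was low in CMT-U229. It gave 0.27, 0.49, 0.22, 0.70 and 0.85 in P114/CMT-U229 (mean 0.50 ± 0.11; limma adjusted p = 0.0416) and -0.31, -0.41, -0.65, -1.17 and -0.86 in CMT-U229/CMT-U335 (mean -0.68 ± 0.13; limma adjusted p = 0.0132). All 10 arrays had CMT-U229 lower. The first call was lost without any one of its 5 arrays, with limma adjusted p from 0.0590 to 0.114, and the second without replicate 5, at 0.0554. P114/CMT-U335 averaged -0.27 ± 0.09 and missed the threshold (limma adjusted p = 0.0714); without replicate 2, the only positive array, it passed at -0.35 ± 0.08 (limma adjusted p = 0.0314). FKBP2, of the ER, and FKBP15, of early endosomes, were uncalled, with means from -0.26 to 0.20.

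PPIC, a cyclophilin of the secretory pathway, was called in each pair. It gave -2.62, -1.23, -2.56, -1.62 and -1.76 in P114/CMT-U335 (mean -1.96 ± 0.21, 3.88-fold lower in P114; limma adjusted p = 0.000754). In CMT-U229/CMT-U335 it gave -1.23, -0.58, -0.69, -1.52 and -1.86 (mean -1.18 ± 0.19, 2.26-fold lower in CMT-U229; limma adjusted p = 0.00678). In P114/CMT-U229 it gave -1.15, -0.70, -1.07, -0.66 and -0.30 (mean -0.77 ± 0.13, 1.71-fold lower in P114; limma adjusted p = 0.0159). All 15 ratios were negative, so the first line of the pair was lower on every array. The P114/CMT-U229 step was the least firm, with limma adjusted p of 0.0574, 0.0506 and 0.0607 without replicate 1, 2 or 3.

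PPID, a cyclophilin that rides on HSP90 as FKBP5 does, was lower in P114/CMT-U335 at -0.59, -0.90, -0.74, -0.94 and -1.04 (mean -0.84 ± 0.09; limma adjusted p = 0.000649). In CMT-U229/CMT-U335 it gave -0.15, -0.59, -0.45, -0.41 and -0.44 (mean -0.41 ± 0.08; limma adjusted p = 0.0142), negative on each array but not called without replicate 2, 3 or 5, at 0.0620, 0.0539 and 0.0580. P114/CMT-U229 gave -0.60, -0.96, -0.41, 0.36 and -0.88; the mean of -0.50 ± 0.19 did not pass, and without replicate 4 it was -0.71 ± 0.12 (limma adjusted p = 0.0175). PPIB, the ER cyclophilin that acts on collagen, was uncalled at -0.12 ± 0.11, 0.21 ± 0.10 and -0.31 ± 0.10. PPIE, a spliceosomal cyclophilin, was uncalled at -0.01, 0.08 and -0.09. PPIG, a nuclear cyclophilin, averaged 0.22 ± 0.10, -0.04 ± 0.12 and 0.24 ± 0.12.

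Co-chaperones assist HSP70 and HSP90 without belonging to these families. Of 16 measured, 1 was called in P114/CMT-U335, 2 in P114/CMT-U229 and 1 in CMT-U229/CMT-U335 (6.25%, 12.5% and 6.25%, beside 22.3%, 7.3% and 17.3% of all genes). The first was lower in P114 (TOMM70, an import receptor that docks both chaperones, at -0.41 ± 0.09). In P114/CMT-U229 BAG3 was higher and SUGT1, an HSP90 partner in kinetochore assembly, was lower at -0.71 ± 0.09, and SUGT1 was higher in CMT-U229/CMT-U335 at 0.97 ± 0.10. HSF1, the main transcription factor of the heat shock response, was uncalled in the 3 pairs, at 0.32 ± 0.10, -0.04 ± 0.09 and 0.56 ± 0.16. It narrowly missed the threshold in P114/CMT-U335 and in CMT-U229/CMT-U335 (limma adjusted p = 0.0511 and 0.0519). HSBP1, which binds HSF1, was lower in P114/CMT-U335 at -0.45 ± 0.09. Of 7 mitochondrial proteases and import chaperones, only CLPX, the unfoldase of a matrix protease, was called, at 0.57 ± 0.08 in CMT-U229/CMT-U335. Of 3 other heat shock factor targets, FOS and CLU were higher in P114/CMT-U335, at 1.82 ± 0.26 and 1.22 ± 0.13, and CRYAB was lower. CLU had the opposite sign in P114/CMT-U229, at -1.97 ± 0.17, and was at 2.92 ± 0.12 in CMT-U229/CMT-U335, both called. FOS was also higher in CMT-U229/CMT-U335, at 0.90 ± 0.18, and uncalled in P114/CMT-U229, at 0.75 ± 0.20.

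Lineage markers also separated the lines, and their part in the chaperone ratios was not tested. Of 5 epithelial markers, 4 were higher and 1 lower in P114/CMT-U335, with ratios from -0.35 to 3.55, 2 were higher in P114/CMT-U229, and 3 were higher and 0 lower in CMT-U229/CMT-U335. Of 9 mesenchymal and bone markers, 4 were higher and 3 lower in P114/CMT-U335 (CTSK at -3.29 ± 0.25 and SPP1 at 4.12 ± 0.18 were the extremes), 5 were higher in P114/CMT-U229, and 1 was higher and 4 lower in CMT-U229/CMT-U335. Of 12 leukocyte, endothelial and muscle markers only CD14 was called, at 0.36 ± 0.10 and 0.50 ± 0.07 in the first 2 pairs. Ratios show which line was higher and not whether a marker was absent. Over all probes, and before turning, the correlation between arrays of a pair was 0.196 to 0.497 where their dyes matched and -0.348 to 0.000149 where they were swapped.

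The 3 pairs form a loop, so each direct P114/CMT-U335 ratio can be set beside the sum of P114/CMT-U229 and CMT-U229/CMT-U335. In limma 0 of the 45 differences passed (0% of all 5246 genes), and no other tool was run on this contrast. At an unadjusted p under 0.05 there was 1 member, beside 17 of all 5246 genes. So few genes fell under that p that 0 calls do not show that the direct and indirect ratios match. For CCT2 the direct and indirect ratios were -1.34 and -1.34, for PPIC -1.96 and -1.95, and for HSPB8 -2.01 and -1.82. For DNAJB14 they were 0.77 and 1.05. TCP1 had the widest gap, -0.24 against -2.84, followed by HSPH1 with -0.52 against 1.10. The sign was shared by 40 of the 45 (4155 of all genes), and the median absolute difference was 0.0635, beside 0.0844 over all genes.

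**Figure D3:**
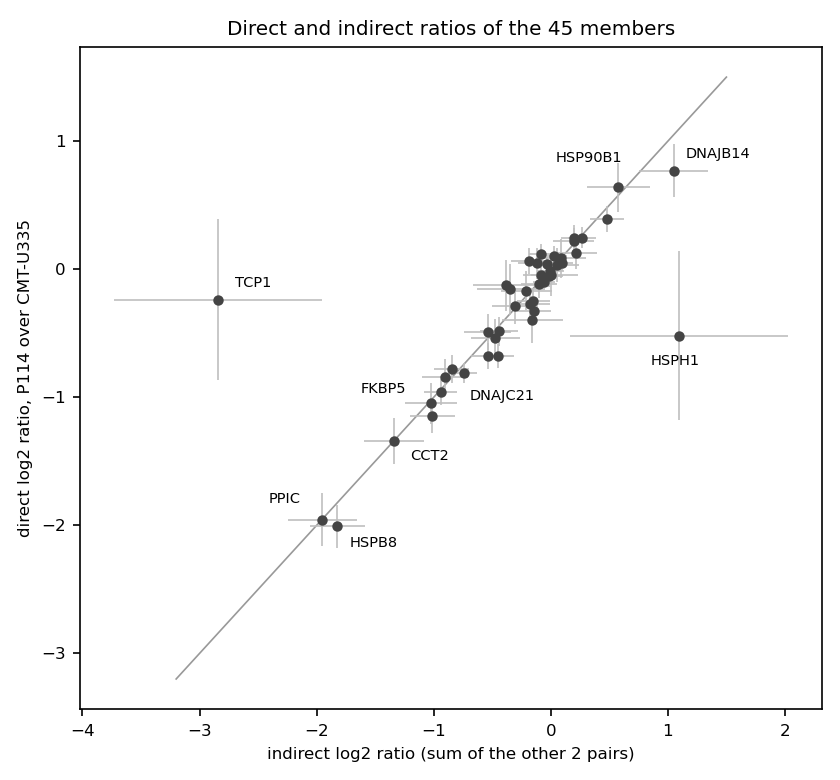
Each point is 1 of the 45 genes, with its direct P114/CMT-U335 log2 ratio against the sum of its P114/CMT-U229 and CMT-U229/CMT-U335 ratios; bars are standard errors from the fit over 15 arrays and the line marks equality. Most genes lie near the line, PPIC at -1.96 and -1.95 among them, and TCP1 and HSPH1 lie off it with the widest bars.

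One array moved many members together. On replicate 4 of P114/CMT-U229, 28 of the 45 were above 0, against 12 to 23 on the other 4 arrays. Of all genes, 48.6% were above 0 on replicate 4 and 41.6% to 52.4% on the others. On replicate 4, 20 of the 45 had their highest value of the 5 (22.4% of all genes did). The median of the 6 cytosolic chaperonin genes was 0.544 on that array and -0.0318, -0.300, -0.127 and -0.608 on replicates 1, 2, 3 and 5, while the median of all genes on replicate 4 was -0.00902. Among the genes that turned positive there were CCT2, CCT6A, DNAJC9, FKBP5 and PPID. Without replicate 4, P114/CMT-U229 had 6 called members in place of 3, with 1 higher and 5 lower in P114. Over all genes there were then 408 calls in place of 383. Among the members, CCT6A, DNAJC9, FKBP3 and PPID were gained and FKBP1B was lost. Without replicate 1, 2, 3 or 5 the member count was 1, 0, 0 and 2, beside 202, 224, 235 and 223 calls over all genes. Where limma called 0, 9 members (without replicate 2) and 11 (without replicate 3) were under an unadjusted p of 0.05. A SAM-type test on all 5 arrays called 5 members, beside 528 calls over all genes. In CMT-U229/CMT-U335, 19 members were highest on replicate 1, where 33.7% of all genes were, and leaving out replicate 5 lowered that pair's count from 15 to 10.

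**Figure D4:**
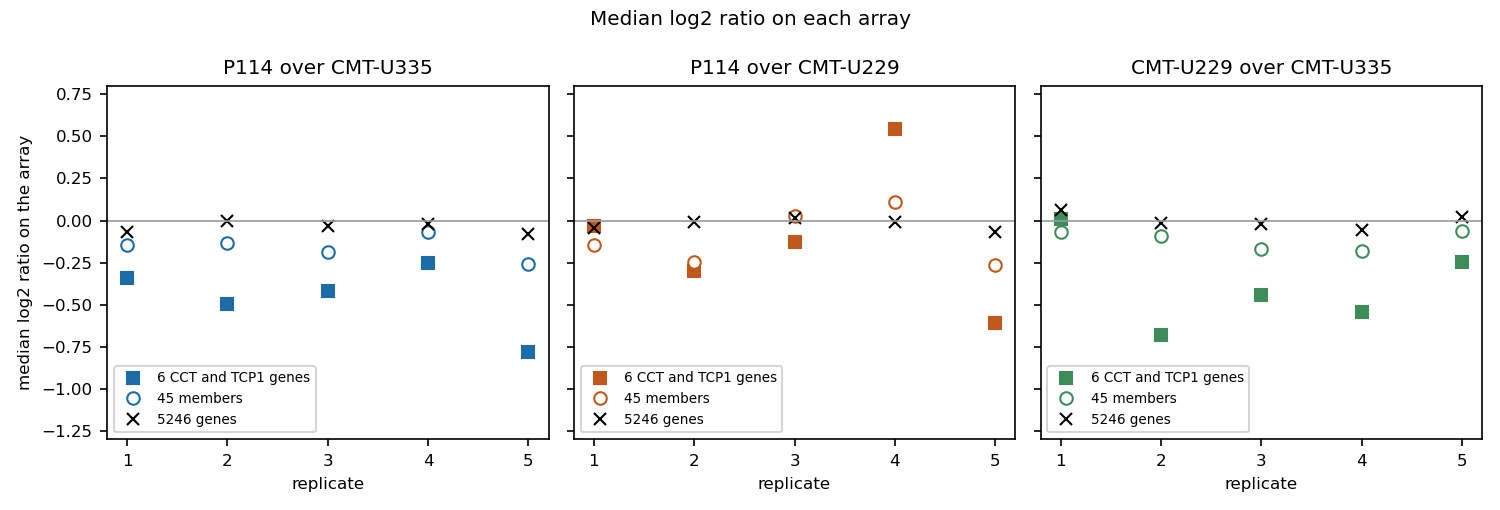
Median log2 ratio on each array, with replicate on the x axis and 1 panel per pair of lines: squares are the 6 CCT and TCP1 genes, open circles the 45 chaperone genes, crosses all 5246 genes. In P114/CMT-U229 the squares range from -0.608 on replicate 5 to 0.544 on replicate 4, while the crosses stay near 0.

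Some arrays may be dye swaps of the same RNA. In P114/CMT-U229, replicates 1 and 3 and replicates 2 and 5 lay close together and had opposite dyes; in CMT-U229/CMT-U335 the same held for 2 and 3 and for 4 and 5. With such couples averaged before the fit, which leaves 3 values per pair, P114/CMT-U335 kept 15 members (14 lower, 1 higher), CMT-U229/CMT-U335 kept 8 (7 lower, 1 higher), and in P114/CMT-U229 limma called 0, with 10 under an unadjusted p of 0.05. HSPB8, CCT2, PPIC, FKBP5, DNAJC21, HSPB6, HSPBAP1 and DNAJB14 kept their calls against CMT-U335 in both pairs. For P114/CMT-U335 the couples were not clear.

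Of the 45 members, 27 had 1 probe and 18 had 2 to 4. Single probes were adjusted over all 22176 probes, where the same values pass less readily than over the 5246 genes. DNAJC1, with 1 probe, had a limma adjusted p of 0.0314 as a gene and 0.0660 as a probe in P114/CMT-U335. No member had probes called in opposite directions. The 4 probes of DNAJC8 gave -0.83 to -0.49 in P114/CMT-U335, and the 4 of HSP90B1 gave 0.40 to 0.86 in CMT-U229/CMT-U335, each on 1 side of 0. HSPA9 had 3 probes at -0.69, -0.59 and -0.34 in P114/CMT-U335, the last of which did not pass. In CMT-U229/CMT-U335 its probes ran from -0.73 to -0.24, and 1 of the 3 passed. HSP90AA1 was called in CMT-U229/CMT-U335 as a gene, yet 0 of its 3 probes passed alone, at 0.21 to 0.51. Like HSPB6, PPIG and DNAJC3 had 1 probe away from 0 and 1 near it. PPIG gave 0.55 ± 0.13 and -0.11 ± 0.10 in P114/CMT-U335 and 0.56 ± 0.11 and -0.09 ± 0.16 in CMT-U229/CMT-U335. DNAJC3, an ER J protein that restrains stress kinases, gave 0.48 ± 0.10 and 0.02 ± 0.09 in P114/CMT-U335 and 0.48 ± 0.09 and 0.09 ± 0.12 in CMT-U229/CMT-U335. In both genes the higher probe passed by itself in both pairs, while the gene mean passed in neither.

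**Figure D5:**
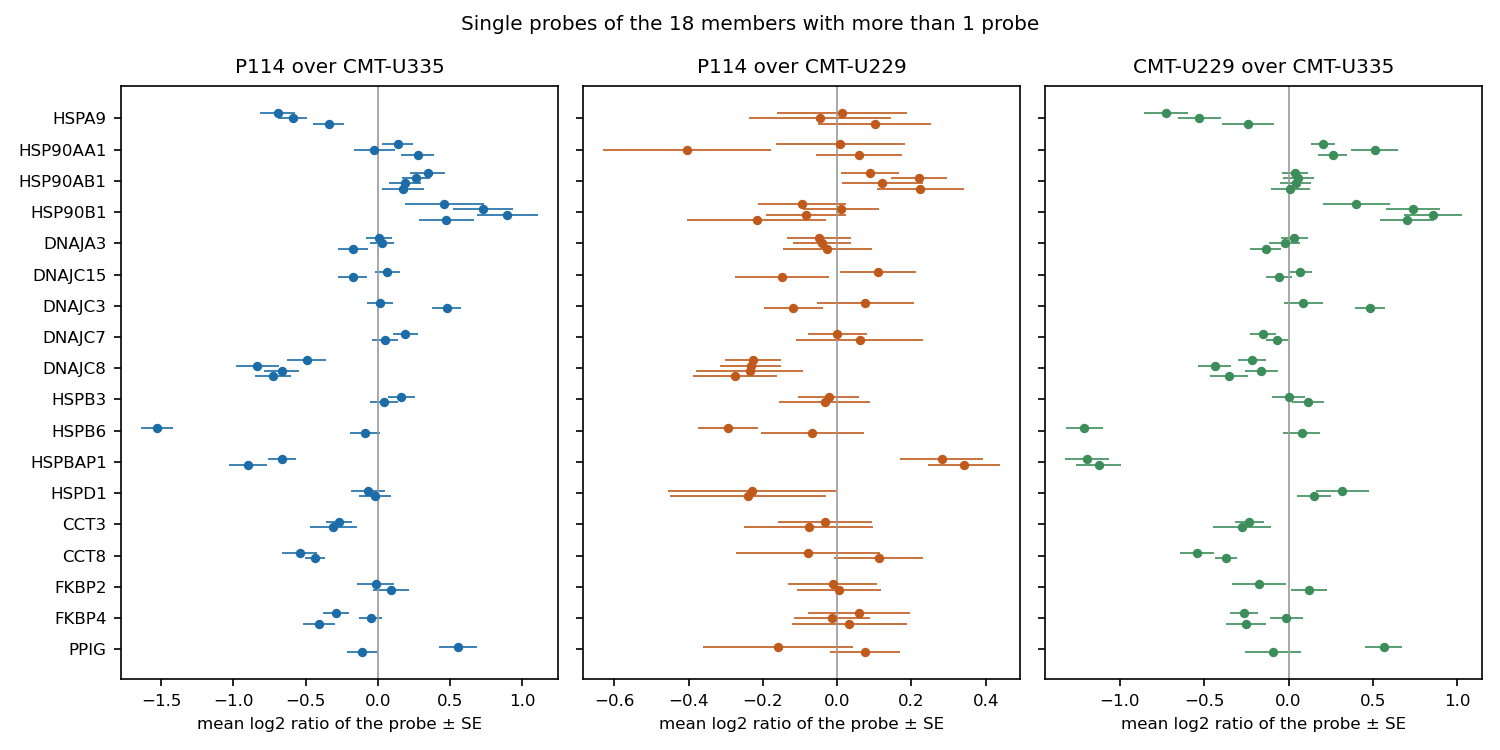
Each point is the mean log2 ratio of 1 probe over 5 arrays with its standard error, for the 18 genes with more than 1 probe; panels are pairs of lines and have different x ranges. HSPB6 shows 1 probe at -1.53 and 1 at -0.09 in P114/CMT-U335, while the probes of HSPBAP1, CCT8 and DNAJC8 stay together.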

How the data were processed

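RNA of the lines was amplified by T7 transcription, coupled to Cy3 or Cy5 and hybridised in pairs to 15 two-colour cDNA arrays, per the labels' protocols. The authors deposited log ratios that they had normalized and log transformed, per the design text; the base was read as log2, since the largest deposited log2 value of 12.43 in size fits a scanner's range only on that scale. The sources used here give neither the normalization nor the numerator. Array medians ran from -0.00671 to 0.0134, so values are centred. The table had 22176 probes with 2 missing values and 0 columns of other series; 7694 probes had 1 symbol in the platform annotation, 0 several and 14482 none. Symbols were matched by Entrez ID to the RefSeq gene table for 7340 probes, with 0 changed, and 354 kept the platform's symbol, which can be old.

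Ratios were turned to the order of the pair's name, and the probes of each gene (73 in all for the members) were averaged. In R 4.3.3, limma 3.58.1 (two-sided, lmFit then eBayes) tested the mean of a pair's 5 ratios against 0, for genes with 3 or more arrays. P-values were adjusted by Benjamini-Hochberg over the 5246 genes, and 0.05 was the threshold. Where probes are given singly, theirs were adjusted over all 22176 probes. Errors are limma's standard errors. The design text names SAM, and a SAM-type test was an alternative. Leaving out an array far from the rest shrinks the error, so a pass gained that way is weaker than one on all 5 arrays. Loop closure was a contrast in a fit over 15 arrays. Members and lists were chosen with earlier results of these data known. Members called in any pair were named with values, as were up to 2 uncalled ones per family with the largest ratios; other uncalled members were named to account for all. From each other list, up to 4 called genes per pair were named. BAG3, CRYAB, CALR, ERP29, NR3C1, NFKBIA and the probes of DNAJC3 and PPIG were singled out after their values were seen. Fits were tested on simulated data with 5 independent values per gene and no dye effect. Arrays that share RNA were not simulated. Figures were drawn with matplotlib 3.10.9. The alternatives in the closing section were array medians at 0, scale normalization, a dye term, and looser and stricter filters for missing values. Others were joint fits of 15 arrays, the replicate number as a block, averaged couples of apparent swaps and the SAM-type test. The rest were the probe of lowest p or the median probe of each gene, other thresholds, leaving out each array, and the turned direction. The probe of lowest p was picked after adjusting over the 7694 probes with a symbol.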

Additional observations from a re-analysis of the deposited data

Results flagged for a closer look

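For the 34 named members, 102 groups of 5 arrays were looked at for a highest or lowest array far from the rest, by Dixon's critical value of 0.71. Of these, 8 groups (7.84%) held one, where chance alone gives about 1 in 20. Replicate 4 of P114/CMT-U229 held 3 of the 8: CCT2 at 0.862, DNAJC9 at 0.577 and DNAJB14 at -1.48. On the other arrays of that pair, replicate 1 gave TCP1 at 0.716 and replicate 5 gave HSPH1 at 3.59. DNAJC21 was nearest to 0 on replicate 1 of P114/CMT-U335, at -0.55. In CMT-U229/CMT-U335, FKBP3 was lowest on replicate 4, at -0.625, and HSPD1 highest on replicate 1, at 0.804.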

How the results depend on the processing

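No called member ratio changed sign under any alternative except the turned direction, under which every ratio changes sign and the higher and lower counts exchange. Of single probes, only the one of lowest p in each gene entered this check. The other HSPB6 probe gave 0.08 ± 0.11 in CMT-U229/CMT-U335, against a called gene mean of -0.57. From 17, the member count in P114/CMT-U335 became 20 in the fit over 15 arrays and 22 in the closed loop. It was 15 with apparent swaps averaged, 19 under the SAM-type test, 16 with a dye term, 14 at 0.01 and 21 at 0.1. With an array left out it was 15 to 17. With each gene read by its probe of lowest p it was 20, a choice that favours genes with several probes. Over all genes that pair had 1757 calls in the closed-loop fit and 642 at an adjusted p under 0.01, against 1169. From 383 the P114/CMT-U229 gene count became 650 in the fit over 15 arrays, 1056 in the closed loop, 79 with apparent swaps averaged, 159 at 0.01, 578 at 0.1, and 202 to 408 with an array left out. From 3 its member count became 8, 12, 0, 0 and 6 under the same first 5 settings, with 10 members under an unadjusted p of 0.05 where averaged swaps gave 0 in limma, 5 under the SAM-type test, and 0 to 6 with an array left out. In CMT-U229/CMT-U335 the gene count went from 910 to 1445 in the closed loop, 410 with swaps averaged, 470 at 0.01 and 571 to 863 with an array left out, and the member count from 15 to 8 with swaps averaged, 9 at 0.01 and 10 to 16 with an array left out. The causes were not tested, beyond the fewer values that averaging or leaving out arrays gives.

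With each gene's pair mean taken off, same-numbered arrays of different pairs correlated at -0.248 to 0.333. Differently numbered arrays were not set beside them, so whether the replicate numbers pair the samples was not settled. With the number as a replicate block the fits called 1172, 515 and 920 genes and 17, 6 and 12 members in P114/CMT-U335, P114/CMT-U229 and CMT-U229/CMT-U335; it gained FKBP3, HSPA4 and PPID in P114/CMT-U229 and HSP90B1 in P114/CMT-U335, and lost FKBP3, HSP90AA1 and PPID in CMT-U229/CMT-U335 and DNAJC1 in P114/CMT-U335. A dye term lost DNAJC1 and DNAJC19 in P114/CMT-U335, FKBP1B in P114/CMT-U229 and HSPA9 in CMT-U229/CMT-U335, and gained DNAJC3 in P114/CMT-U335 and PPIB in CMT-U229/CMT-U335. Loop closure stayed at 0 members under each of its alternatives. Signal over background was not used here, so dim probes could not be set apart.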

Other observations

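A gene that the platform annotation lists under the old name HSP70 lies outside the symbol rule. Its means were -0.16 ± 0.09 in P114/CMT-U335, -0.13 ± 0.09 in P114/CMT-U229 and 0.05 ± 0.09 in CMT-U229/CMT-U335, and limma called none of them.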
